A study of Mus musculus with 4 samples.

Results

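The integrin and laminin genes were defined by name, as the rows called Itga or Itgb followed by a number with an optional letter, or Lama, Lamb or Lamc followed by a number, without the integrin-binding proteins Itgb1bp and Itgb3bp. This gave 33 rows of 18169, for 32 genes. They were 12 integrin alpha and 9 integrin beta rows, and 5 alpha, 3 beta and 4 gamma chain rows of laminin. Integrin subunits named with letters alone, such as Itgav, were outside the definition and are given with the related lists.

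Polyadenylated RNA was sequenced from 4 primary cultures of mouse neural stem/progenitor cells (NSCs), 2 +/+ and 2 Chd5-/-, all of strain C57BL/6. Each culture came from the periventricular region of the brain of 1 newborn mouse and was kept in proliferation medium with epidermal growth factor and fibroblast growth factor 2. The growth protocol gives postnatal day 1 for all cultures, whereas the age entries give days 1 and 2 for +/+ replicates 1 and 2 and days 3 and 4 for Chd5-/- replicates 1 and 2. By those entries genotype and age cannot be told apart. Chd5-/- cells lack the chromatin remodeler Chd5. The sources used here do not describe the allele further.

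Integrins are receptors of 1 alpha and 1 beta subunit that span the cell membrane and join the extracellular matrix to the actin cytoskeleton. Laminins are matrix proteins assembled from 1 alpha, 1 beta and 1 gamma chain, and they are the main ligands in basement membranes for integrins and for dystroglycan. In the ventricular and subventricular zones, stem cells contact laminin at the brain surface and around blood vessels, and cultures of such cells commonly use laminin as an adhesive substrate.

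The targeted gene Chd5 was at 0.39 and 0.37 TPM (transcripts scaled to a fixed total per sample) in +/+ cultures against 0.06 and 0.04 TPM in Chd5-/- cultures. TPM scales each sample to the same total and keeps no record of read number, so depth is unknown, and values can be compared between genes because they are per length. Across the 12576 rows that averaged 1 TPM or more, the rank correlation was 0.974 between the +/+ samples and 0.904 between the Chd5-/- samples, against 0.904 to 0.925 between genotypes. The Chd5-/- libraries thus stood apart from each other. The stem cell genes Fabp7, Sox2, Vim and Nes were present in all 4 samples, with the lowest value 60.88 TPM for Nes in Chd5-/- replicate 2. Egfr was at 138.93 and 129.19 TPM in +/+ cultures against 147.21 and 324.03 TPM in Chd5-/- cultures. For Hes1 the values were 46.10 and 39.20 TPM against 32.01 and 20.87 TPM. Some other stem cell markers were low or uneven. Prom1 was at 0.99 and 4.15 TPM in +/+ cultures against 45.27 and 3.20 TPM in Chd5-/- cultures. For Hes5 the values were 8.52 and 3.13 TPM against 1.16 and 43.69 TPM. Slc1a3 was lower in Chd5-/- cultures, at 1871.05 and 1620.40 TPM against 442.25 and 1005.58 TPM. The summed TPM of 5 astrocyte markers was 169 in Chd5-/- replicate 1 and between 679 and 937 in the other samples. The smooth muscle and fibroblast genes Acta2, Col3a1 and Dcn were at 9.55, 7.41 and 4.17 TPM in Chd5-/- replicate 1 and 0.30 TPM or less in every other sample. Of the other 6 mural and mesenchymal markers, Cspg4, which oligodendrocyte precursors also express, was at 4.73 TPM in that library and Rgs5 at 0.79, Lum at 0.37, Col1a2 at 0.20, Pdgfrb at 0.08 and Col1a1 at 0 TPM. In bulk RNA, fewer cells of a type and less RNA per cell cannot be told apart.

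Promoter sequences are shown for 5 genes. Lama5, Lamb2 and Itga5 are those of the 6 genes with an unadjusted p-value under 0.05 for which the RefSeq table holds a window, and Itgb1 and Itgb8 are the most abundant integrin genes. Each line gives the 250 bases before the RefSeq transcription start in GRCm38.p6, 5′ to 3′ on the strand of the gene, and capitals mark GGGCGG or its reverse complement CCGCCC, the core of the GC box.
Lama5, chr2:180225860-180226109, minus strand: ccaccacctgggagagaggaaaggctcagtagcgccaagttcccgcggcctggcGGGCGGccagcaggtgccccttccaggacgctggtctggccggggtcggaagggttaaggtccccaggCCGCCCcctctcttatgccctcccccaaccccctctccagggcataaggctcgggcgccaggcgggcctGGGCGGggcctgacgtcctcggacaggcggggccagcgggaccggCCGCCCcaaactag
Lamb2, chr9:108479612-108479861, plus strand: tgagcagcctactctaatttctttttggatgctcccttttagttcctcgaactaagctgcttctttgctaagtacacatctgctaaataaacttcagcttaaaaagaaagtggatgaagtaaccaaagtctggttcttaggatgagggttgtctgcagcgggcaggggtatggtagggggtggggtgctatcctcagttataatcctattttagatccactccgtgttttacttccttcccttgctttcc
Itga5, chr15:103366792-103367041, minus strand: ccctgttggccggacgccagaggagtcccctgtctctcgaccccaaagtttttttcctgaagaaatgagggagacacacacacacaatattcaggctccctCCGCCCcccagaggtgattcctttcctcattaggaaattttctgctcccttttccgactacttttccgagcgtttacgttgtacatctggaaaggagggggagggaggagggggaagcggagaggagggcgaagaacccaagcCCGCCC
Itgb1, chr8:128685404-128685653, plus strand: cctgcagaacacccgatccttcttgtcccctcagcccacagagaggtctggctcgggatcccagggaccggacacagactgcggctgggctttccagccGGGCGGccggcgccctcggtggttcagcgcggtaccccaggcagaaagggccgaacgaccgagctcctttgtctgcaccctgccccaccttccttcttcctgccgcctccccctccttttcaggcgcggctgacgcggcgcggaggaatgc
Itgb8, chr12:119238277-119238526, minus strand: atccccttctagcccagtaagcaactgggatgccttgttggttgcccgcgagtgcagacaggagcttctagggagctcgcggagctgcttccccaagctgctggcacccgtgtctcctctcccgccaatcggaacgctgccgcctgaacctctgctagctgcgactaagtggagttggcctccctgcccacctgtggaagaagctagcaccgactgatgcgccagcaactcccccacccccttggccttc
The motif occurred 4 times before Lama5, 2 times before Itga5 and 1 time before Itgb1, and it was absent from the windows of Lamb2 and Itgb8. By the gene coordinates given below, however, Itgb8 starts at 119238802 and Lamb2 at 108479736. The window of Itgb8 then lies inside the gene and that of Lamb2 partly inside. Absence of the motif there does not describe the sequence before those starts. The window of Lama5 was 72.4% G or C and that of Lamb2 43.6%, against a median of 52.4% over the 32851 windows in the table. The table held 24 windows for 21 of the 32 genes. Of these 24 windows, 8 held the motif, or 33.3%, against 32.7% of all windows.

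Expression was compared between genotypes with limma on log2(TPM + 1), and all log2 fold changes are differences of group means on that scale, Chd5-/- minus +/+, which understates the difference for genes of low TPM. Of the 33 rows, 16 had a mean of at least 1 TPM and were tested, 11 integrin and 5 laminin rows. Lama4 and Itgb2 exceeded the minimum only through the Chd5-/- samples, so their higher Chd5-/- means follow from the filter. None of the 16 rows passed an adjusted p-value of 0.05 over all rows (limma, Benjamini-Hochberg, smallest adjusted p = 0.120), a threshold that 7 rows, or 0.0557%, passed in all. Without adjustment, 5 rows reached a p-value under 0.05 with higher values in Chd5-/- NSCs, as did 21.9% of all rows tested, and 1 row with lower values, as did 2.27%. Of the 14 rows with a mean over the minimum in both genotypes, 4 were higher and 1 lower by this measure. With 2 samples per genotype, the smallest two-sided p-value from an exact permutation test is 0.333. The labels do not say how litters or culture days were shared, so p-values measure the spread between these samples.

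**Figure D1:**
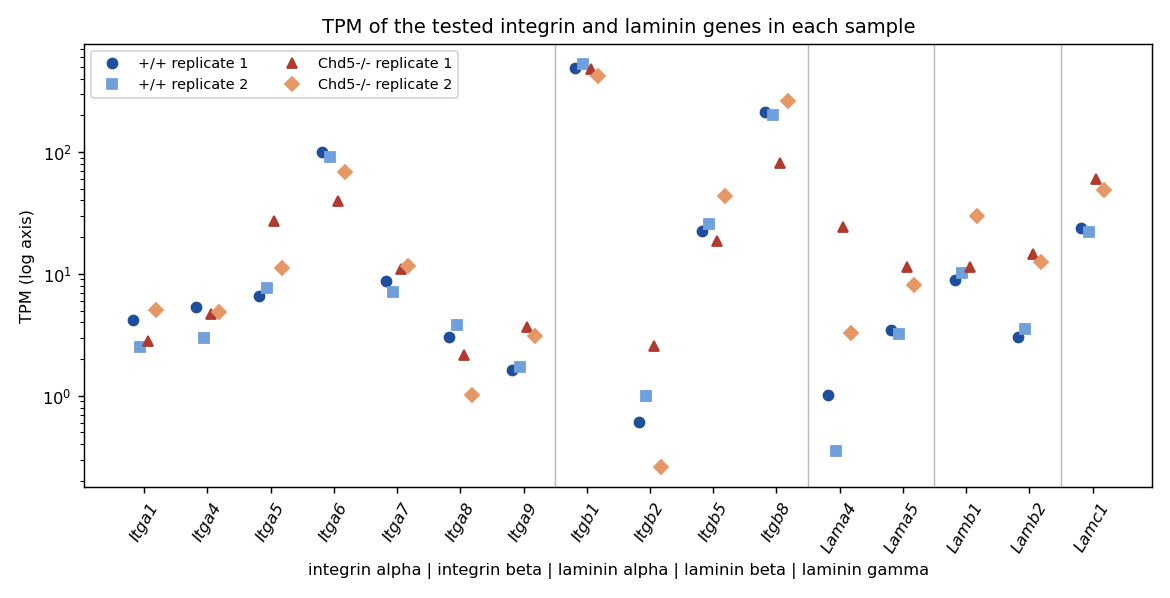
TPM on a log axis for the 16 tested integrin and laminin genes, with 1 symbol per sample and genes grouped by subunit or chain. Both Chd5-/- samples lie above both +/+ cultures for all 5 laminin genes shown, whereas Itgb1 stays between 418.86 and 524.86 TPM in all samples.

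The laminin chains had more RNA in both Chd5-/- cultures. Summed over all 12 laminin rows, TPM was 41.14 and 40.26 in +/+ cultures against 125 and 104 in Chd5-/- cultures. All 5 laminin rows tested had both Chd5-/- values above both +/+ values, as did 46.3% of all rows tested. Their median log2 fold change was 1.28, against 0.34 for all rows. Lama4 is among them through the filter, and the median of the other 4 was 1.24.

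Lamc1, the gamma chain found in most laminins, was the most abundant laminin gene. It lies on chromosome 1 of GRCm38 (153218922 to 153332786, minus strand) and was at 23.93 and 22.13 TPM in +/+ cultures against 59.74 and 48.56 TPM in Chd5-/- cultures. The genotypes were separated by more than the spread within either, with means of 23.0 ± 1.27 and 54.2 ± 7.91 TPM (SD, n = 2 each). The log2 fold change of Lamc1 was 1.19 (standard error 0.24, 95% interval 0.59 to 1.79, unadjusted p = 0.00344 and adjusted p = 0.120 with limma). It was between 1.05 and 1.34 with any 1 sample left out and 0.63 with trends of GC content and transcript length removed. Over the alternatives, its adjusted p-value ranged from 0.0333 to 0.759. The annotation lists 2 gene models that overlap Lamc1.

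Among the beta chains, Lamb2 stood further from the +/+ samples than Lamb1. Lamb2 encodes the beta chain of synaptic, muscle and kidney basement membranes, on chromosome 9 (108479736 to 108490530, plus strand). It was at 3.03 and 3.52 TPM in +/+ cultures against 14.59 and 12.56 TPM in Chd5-/- cultures. Its log2 fold change of 1.77 had the smallest p-value of the 16 rows (standard error 0.28, 95% interval 1.05 to 2.49, unadjusted p = 0.00131 and adjusted p = 0.120 with limma), and the adjusted p-value ranged from 0.0410 to 0.759 over the alternatives. With any 1 sample left out, the log2 fold change of Lamb2 was between 1.67 and 1.87, and with the GC and length trends removed it was 0.89. Lamb1, the beta chain of most early basement membranes, lies on chromosome 12 (31265234 to 31329644, plus strand). It was at 8.93 and 10.11 TPM in +/+ cultures against 11.47 and 29.64 TPM in Chd5-/- cultures. The high value came from Chd5-/- replicate 2, and replicate 1 lay close to the +/+ samples. The log2 fold change of Lamb1 was 0.90, with a 95% interval from -0.30 to 2.10 (adjusted p = 0.307 with limma), and it was 0.25 without Chd5-/- replicate 2 and 1.54 without Chd5-/- replicate 1. The share of Lamb2 in the summed beta chains was 25.2% and 25.6% in +/+ cultures, 55.04% in Chd5-/- replicate 1 and 29.1% in Chd5-/- replicate 2.

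The alpha chains, which carry the main binding sites for integrins and dystroglycan, were represented by Lama5 and Lama4. Lama5, the alpha chain of many mature epithelial and vascular basement membranes, lies on chromosome 2 (180176373 to 180225859, minus strand). It was at 3.49 and 3.22 TPM in +/+ cultures against 11.32 and 8.09 TPM in Chd5-/- cultures. Both Chd5-/- values were above both +/+ values, with a log2 fold change of 1.28 (standard error 0.31, 95% interval 0.49 to 2.07, unadjusted p = 0.00833 and adjusted p = 0.126 with limma). The log2 fold change of Lama5 was between 1.06 and 1.501 with any 1 sample left out and 0.31 with trends of GC content and transcript length removed.

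Lama4, the alpha chain of vessel walls and mesenchymal matrix, lies on chromosome 10 (38965515 to 39110188, plus strand). It was at 1.02 and 0.35 TPM in +/+ cultures, 24.42 TPM in Chd5-/- replicate 1 and 3.29 TPM in Chd5-/- replicate 2. The Chd5-/- samples differed from each other more than replicate 2 differed from the +/+ samples in TPM. The log2 fold change of Lama4 was 2.66 (standard error 0.87, 95% interval 0.46 to 4.87, unadjusted p = 0.0265 and adjusted p = 0.166 with limma), and it was 1.38 without Chd5-/- replicate 1 and 3.94 without Chd5-/- replicate 2. Its share of the summed alpha chains was 64.5% in Chd5-/- replicate 1, 27.9% in Chd5-/- replicate 2 and 20.6% and 8.50% in +/+ cultures, whereas Lama5 held 70.5% and 78.2% in +/+ cultures against 29.9% and 68.6% in Chd5-/- cultures. Chd5-/- replicate 1 was also the library with Acta2, Col3a1 and Dcn. The summed TPM of the 9 mural and mesenchymal markers was 4.29 and 4.93 in +/+ cultures against 27.3 and 11.7 in Chd5-/- cultures, while 4 of the 9 stayed under 1 TPM in all samples. Cspg4 alone was at 10.93 TPM in Chd5-/- replicate 2, and the other 8 markers summed to 0.48 and 1.68 TPM in +/+ cultures, 22.57 TPM in Chd5-/- replicate 1 and 0.73 TPM in Chd5-/- replicate 2. Their part in the result was not tested.

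The other laminin rows were low. Lama1, Lama2, Lama3, Lamb3 and Lamc3 had values from 0 to 1.67 TPM, the highest being Lama2 in Chd5-/- replicate 1. Lamb3 was at 0.08 and 0.10 TPM in +/+ cultures against 0.45 and 0.92 TPM in Chd5-/- cultures. Lamc3 was listed at 0 TPM in all samples except +/+ replicate 2, where it was at 0.02 TPM.

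**Figure D2:**
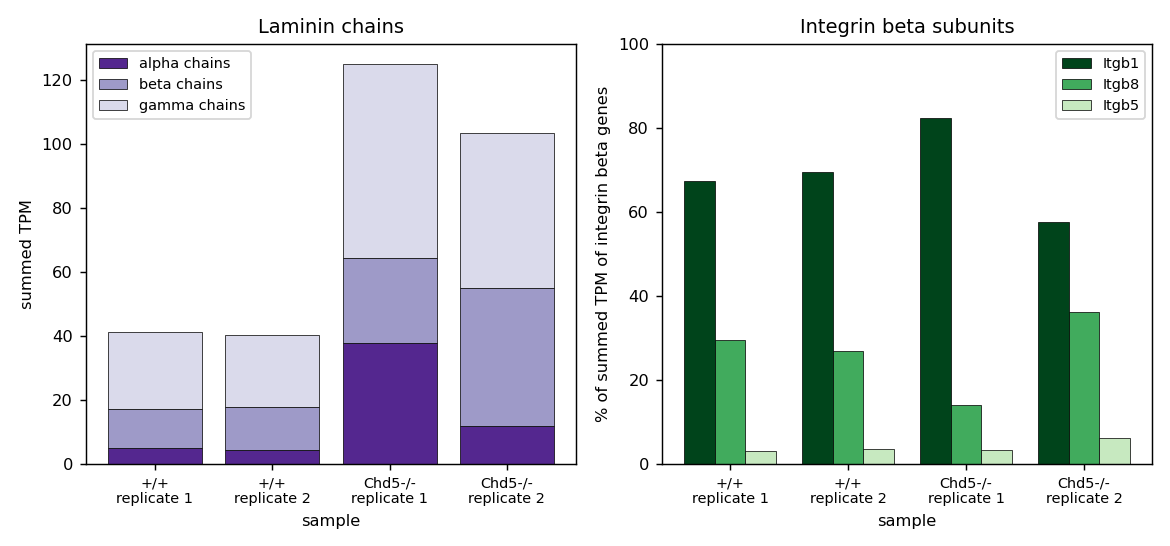
Left, summed TPM of the laminin alpha, beta and gamma chains in each sample, stacked, with totals of 41.14 and 40.26 TPM in the +/+ and 125 and 104 TPM in Chd5-/- cultures. Right, the share of Itgb1, Itgb8 and Itgb5 in the summed TPM of the integrin beta genes, in percent, where Itgb8 ranges from 13.9% to 36.2% between the Chd5-/- samples.

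The integrin genes showed no common direction. Of the 11 rows tested, 7 had a positive log2 fold change, but only 3 were above the median of all rows, and the median over the 11 was 0.20. Itgb2 is among the 11 and the 7 through the filter, and the median of the other 10 was 0.18. The median over the 11 was -0.07 without Chd5-/- replicate 2, -0.12 without +/+ replicate 2 and 0.34 without Chd5-/- replicate 1. At an unadjusted p-value under 0.05, Itga5 was higher and Itga6 lower. Itga5, Itga7 and Itga9 had both Chd5-/- values above both +/+ values, as did 46.3% of rows tested. Itga6, Itga8 and Itgb1 had both below, as did 13.0%.

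The beta subunits were led by Itgb1, which pairs with most alpha subunits and forms the main receptors for laminin, collagen and fibronectin. Itgb1 lies on chromosome 8 (128685654 to 128733200, plus strand) and was at 489.22 and 524.86 TPM in +/+ cultures against 483.28 and 418.86 TPM in Chd5-/- cultures. The values lay close together, with a log2 fold change of -0.17 and a 95% interval from -0.75 to 0.41 (adjusted p = 0.667 with limma). Itgb8, which pairs with the alpha subunit of Itgav and releases active TGF-beta in the developing brain, lies on chromosome 12 (119158022 to 119238802, minus strand). It was at 213.47 and 201.92 TPM in +/+ cultures, 81.48 TPM in Chd5-/- replicate 1 and 263.46 TPM in Chd5-/- replicate 2. The Chd5-/- values lay on either side of the +/+ values. Itgb8 had a log2 fold change of -0.50, with a 95% interval from -1.92 to 0.92 (adjusted p = 0.606 with limma). It was 0.34 without Chd5-/- replicate 1 and -1.34 without Chd5-/- replicate 2.

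Itgb5, another partner of Itgav that binds vitronectin, was at 22.65 and 25.44 TPM in +/+ cultures against 18.43 and 43.60 TPM in Chd5-/- cultures. As for Itgb8, replicate 1 was below and replicate 2 above both +/+ cultures. Itgb1, Itgb8 and Itgb5 together held between 99.4% and 99.9% of the summed TPM of the 9 beta genes in every sample. The share of Itgb1 was 67.4% and 69.5% in +/+ cultures, 82.3% in Chd5-/- replicate 1 and 57.5% in Chd5-/- replicate 2.

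Itgb2, the beta subunit of leukocyte integrins, was at 0.61 and 1.00 TPM in +/+ cultures against 2.56 and 0.26 TPM in Chd5-/- cultures, so the genotypes overlapped. Its partners Itgam and Itgal stayed at 0.29 TPM or less, and 3 of the 11 listed microglia and leukocyte markers had a row. Of these, Cd68 was at 14.39 and 12.34 TPM in +/+ cultures against 56.02 and 2.50 TPM in Chd5-/- cultures, while Aif1 and P2ry12 stayed at 0.45 TPM or less. Itgb2 and Cd68 were both highest in Chd5-/- replicate 1 and lowest in Chd5-/- replicate 2. The part of leukocytes in these values was not tested.

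Of the alpha subunits named with a number, Itga6 was the most abundant. It encodes the alpha subunit of a laminin receptor found on neural stem cells and lies on chromosome 2 (71745616 to 71858416, plus strand). Itga6 was at 99.38 and 90.96 TPM in +/+ cultures against 39.74 and 68.29 TPM in Chd5-/- cultures. Both Chd5-/- values were below both +/+ values, with means of 95.2 ± 5.95 and 54.0 ± 20.2 TPM (SD, n = 2 each). The log2 fold change was -0.85 (standard error 0.32, 95% interval -1.66 to -0.05, unadjusted p = 0.0404 and adjusted p = 0.189 with limma). It was -0.47 without Chd5-/- replicate 1 and -1.24 without Chd5-/- replicate 2. The direction was the same under all 16 alternatives, and the unadjusted p-value was under 0.05 in 11 of them. Some alternatives changed only the minimum, the replicate block or the variance estimate. They left the log2 fold change at -0.85, so the same direction under them was fixed in advance. The annotation lists 4 other gene models that overlap Itga6, with which reads may be shared.

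Itga5, the alpha subunit of the main fibronectin receptor, lies on chromosome 15 (103344286 to 103366763, minus strand). It was at 6.57 and 7.65 TPM in +/+ cultures against 27.00 and 11.07 TPM in Chd5-/- cultures. Both Chd5-/- values were above both +/+ values, and replicate 1 stood far above replicate 2. The log2 fold change was 1.18 (standard error 0.46, 95% interval 0.03 to 2.34, unadjusted p = 0.0464 and adjusted p = 0.200 with limma). It was 0.58 without Chd5-/- replicate 1 and 0.32 with trends of GC content and length removed. Its ligand fibronectin, Fn1, was at 5.01 and 8.61 TPM in +/+ cultures, 154.09 TPM in Chd5-/- replicate 1 and 12.16 TPM in Chd5-/- replicate 2.

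The other tested alpha subunits lay between 1.02 and 11.57 TPM. Itga7, a laminin receptor subunit best known from muscle, was at 8.72 and 7.15 TPM in +/+ cultures against 11.04 and 11.57 TPM in Chd5-/- cultures, a log2 fold change of 0.47 (adjusted p = 0.341 with limma). Itga9, a receptor subunit for tenascin, was at 1.64 and 1.72 TPM in +/+ cultures against 3.65 and 3.09 TPM in Chd5-/- cultures, a log2 fold change of 0.70 (adjusted p = 0.252). Both genes had closely matched Chd5-/- samples. Itga8, whose main ligand is nephronectin, was at 3.03 and 3.84 TPM in +/+ cultures against 2.16 and 1.02 TPM in Chd5-/- cultures, a log2 fold change of -0.81 (adjusted p = 0.266). Itga1, a collagen receptor subunit, was at 4.19 and 2.51 TPM in +/+ cultures against 2.79 and 5.01 TPM in Chd5-/- cultures. Itga4, a receptor subunit for fibronectin and Vcam1, was at 5.35 and 2.96 TPM in +/+ cultures against 4.65 and 4.87 TPM in Chd5-/- cultures. For Itga1 and Itga4 the genotypes overlapped.

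Among the alpha subunits named with a number, which leaves out the more abundant Itgav, Itga6 made up 76.6% and 77.1% of the summed TPM of the 12 rows in +/+ cultures, 41.4% in Chd5-/- replicate 1 and 62.7% in Chd5-/- replicate 2. With Itgav added to the sum, the share of Itga6 was 29.9% and 22.4% in +/+ cultures against 17.1% and 27.8% in Chd5-/- cultures, so the genotypes overlapped. Of the 12 rows alone, Itga5 made up 5.06% and 6.48% in +/+ cultures against 28.1% and 10.2% in Chd5-/- cultures. The summed TPM of the alpha rows was 130 and 118 in +/+ cultures against 95.94 and 109 in Chd5-/- cultures. Chd5-/- replicate 1 had the lowest share of Itga6 and the highest share of Itga5.

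The 10 integrin rows under the minimum were Itga2, Itga2b, Itga3, Itga10, Itga11, Itgb2l, Itgb3, Itgb4, Itgb6 and Itgb7, with values from 0 to 2.61 TPM. The highest was Itga3, a laminin receptor subunit of epithelia, at 2.61 TPM in Chd5-/- replicate 1 and 0.28 TPM or less elsewhere. Itga2b, the platelet subunit, was at 0.31 TPM in both +/+ cultures and at 0.98 and 1.07 TPM in Chd5-/- cultures. Itga10 was at 0.21 and 0.26 TPM in +/+ cultures against 0.74 and 0.67 TPM in Chd5-/- cultures. Of all 33 rows, 15 had both Chd5-/- values above both +/+ values and 3 had both below, as did 41.1% and 10.6% of all rows. Of the 17 under the minimum, 7 had both Chd5-/- values above both +/+ values and 0 had both below, as did 29.4% and 5.08% of all rows under the minimum. At such levels few reads can stand behind a value.

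**Figure D3:**
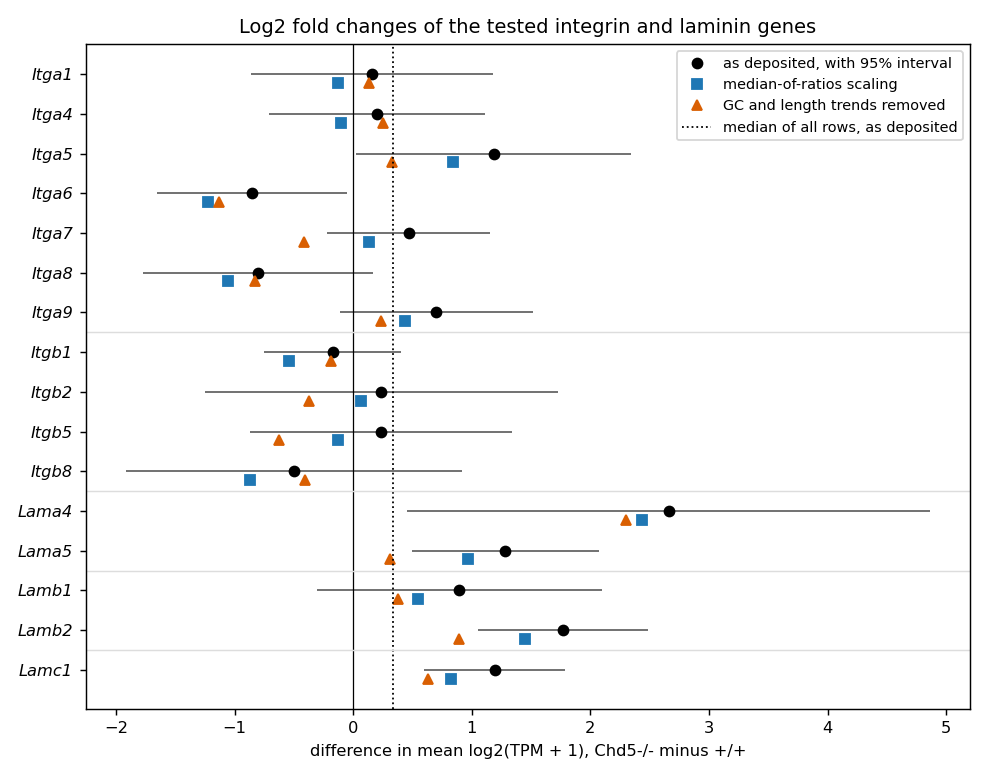
Log2 fold changes of the 16 tested genes as deposited (black points, lines are 95% intervals from limma), after median-of-ratios scaling (squares) and with trends of GC content and length removed (triangles). The dotted line is the median of all rows as deposited, 0.34, and the 5 laminin genes lie to its right as deposited.

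The values of these genes depended on how samples were scaled. Taken over every row tested, the median log2 fold change was 0.34. It became 0.0052 when samples were scaled by median of ratios, -0.05 when quantile normalized, 0.13 when rescaled with the 20 most abundant rows excluded, and -0.01 with trends of GC content and length removed. Relative to that median, the laminin median was 0.94 as deposited, 0.96, 0.98 and 1.00 under the other scalings in that order, and 0.64 with the trends removed. All 5 laminin rows lay above the median of all rows in these settings, but Lama4 is among the 5 only through the filter. The integrin median relative to all rows was -0.14 as deposited, -0.13, -0.38 and -0.12 under the other scalings, and -0.36 with the trends removed. Itga6 was 1.19 below the median of all rows as deposited, and its value relative to that median was between -1.23 and -0.94 in these alternatives. The sign of Itga1, Itga4, Itga7, Itgb2 and Itgb5 changed under at least 1 of these alternatives. With median-of-ratios scaling, 4 rows had higher and 2 lower values at p under 0.05 without adjustment, where 1508 and 1311 of the 12576 rows were.

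Ratios between genes within a library do not change when all values of a library are multiplied by 1 factor, though quantile normalization changes them. The log2 ratio of Lamc1 to Itgb1 was -4.35 and -4.57 in +/+ cultures against -3.02 and -3.11 in Chd5-/- cultures. The log2 ratio of Lamb2 to Itgb1 was -7.34 and -7.22 in +/+ cultures against -5.05 and -5.06 in Chd5-/- cultures, and that of Lama5 to Itgb1 was -7.13 and -7.35 against -5.42 and -5.69. The genotypes did not overlap in these ratios, but this follows from the single values and adds nothing to them. Both Chd5-/- values were below both +/+ values for Itgb1 and above them for Lamc1, Lamb2 and Lama5. Itgb1 itself was 0.51 below the median of all rows. The summed laminin rows came to 4.81% and 4.61% of the summed integrin rows in +/+ cultures against 18.3% and 12.4% in Chd5-/- cultures. The log2 ratio of Itga6 to Itgb1 was -2.30 and -2.53 in +/+ cultures, -3.60 in Chd5-/- replicate 1 and -2.62 in Chd5-/- replicate 2, which lay close to the +/+ samples.

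**Figure D4:**
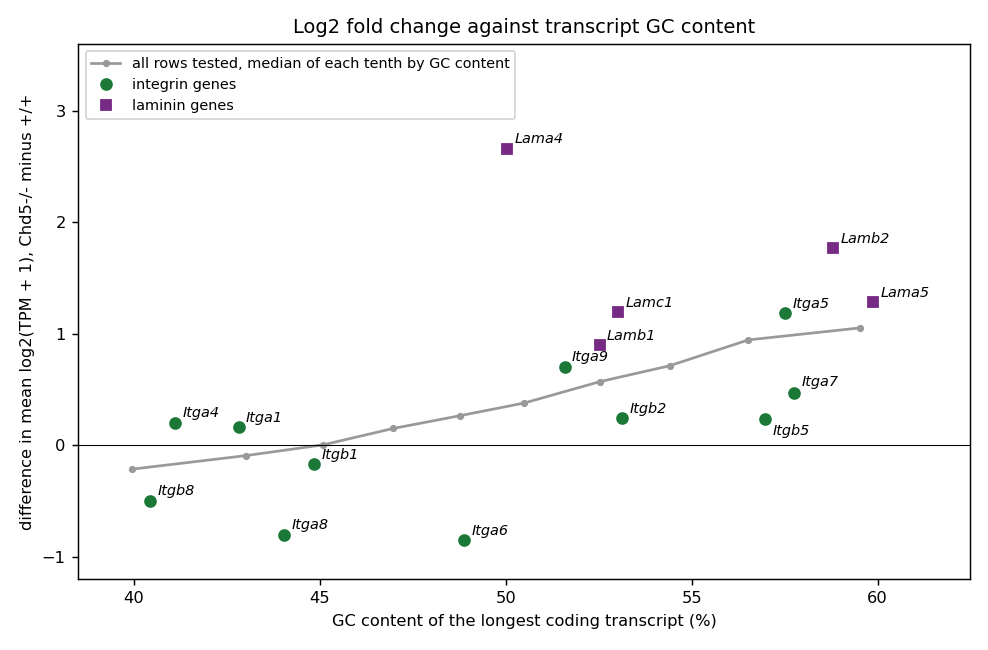
Log2 fold change (Chd5-/- minus +/+, log2(TPM + 1)) against the GC content of the longest coding transcript in percent, for integrin genes (circles), laminin genes (squares) and the median of each of 10 equal bins of all rows tested (grey line). The grey line goes from -0.22 to 1.05, the 5 laminin genes lie above it, and Itga6 lies at -0.85.

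A feature that the definition did not use, the GC content of the transcript, went with the differences. Across all rows tested with a known transcript, the median log2 fold change went from -0.22 in the lowest of 10 bins of GC content to 1.05 in the highest. Among the 16 tested members, Spearman's rho between GC content and log2 fold change was 0.68, which describes genes of the same 4 libraries and not independent replicates. For 11700 rows it was 0.62, and for the 16 members it was 0.29 with the trends removed. The 5 members with a GC content of at least 55%, Itga5, Itga7, Itgb5, Lama5 and Lamb2, all had positive log2 fold changes, with a median of 1.18. The 5 members under 45%, Itga1, Itga4, Itga8, Itgb1 and Itgb8, had a median of -0.17. Lama5 had the highest GC content of the 16 genes, 59.9%, and Lamc1 was at 53.0%. With the trends removed, Lamc1 had a log2 fold change of 0.63, Lamb2 of 0.89 and Itga6 of -1.13. Whether GC content had a part in the differences was not tested beyond this correction.

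**Figure D5:**
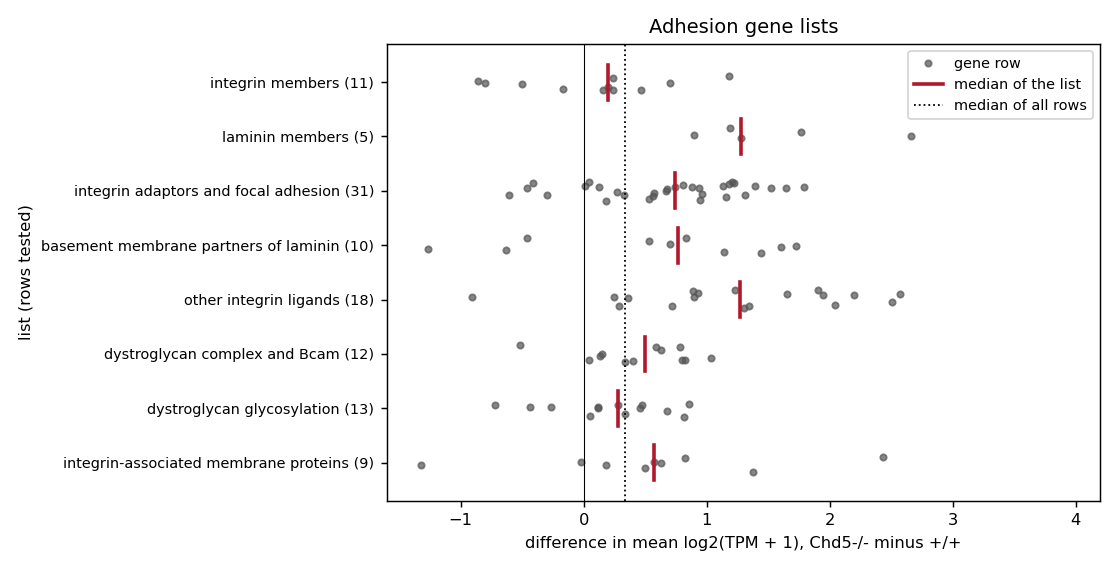
Log2 fold changes of single gene rows (points) in the integrin and laminin families and in 6 related lists, with the median of each list (red bar) and of all rows (dotted line, 0.34). The number of rows tested is given beside each list, and the medians of the laminin genes and the other integrin ligands, 1.28 and 1.27, include 1 and 7 rows that passed the minimum only through Chd5-/- cultures and were 1.24 and 0.89 without them.

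Of the integrin subunits outside the naming rule, only Itgav was tested. Itgav encodes the alpha subunit that pairs with Itgb5 and Itgb8 and was at 202.42 and 287.66 TPM in +/+ cultures against 136.32 and 136.33 TPM in Chd5-/- cultures. Both Chd5-/- samples were lower, with a log2 fold change of -0.82 (unadjusted p = 0.0227 and adjusted p = 0.157 with limma). Set beside the 12 alpha rows, Itgav held 60.9% and 70.9% of the summed alpha TPM in +/+ cultures against 58.7% and 55.6% in Chd5-/- cultures. Itgav was the most abundant alpha subunit in every sample.

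Adaptors link the tails of integrins to actin and to signalling proteins. In the list of integrin adaptors and focal adhesion genes, 14 of 31 rows tested were higher at an unadjusted p-value under 0.05 and 1 was lower, where 21.9% and 2.27% of all rows were, and the median log2 fold change was 0.75, with 27 positive values. Of the 29 rows over the minimum in both genotypes, 13 were higher and the median was 0.68. The median GC content of the rows tested in this list was 53.5%, against 49.6% for all rows tested. In the bins of all rows with a median GC content of 52.5% and 54.4%, the median log2 fold change was 0.57 and 0.71. The part of GC content in the values of this list was not tested. None of these 31 rows passed the adjusted threshold (smallest adjusted p = 0.120 with limma). Among the highest were the docking protein Bcar1 with 1.64 and the tensin Tns2 with 1.52. Tns2 passed the minimum only through Chd5-/- cultures, so its higher Chd5-/- mean follows from the filter. The lowest were the adaptor Crk with -0.60, the docking protein Nedd9 with -0.46 and Lims1, a partner of Ilk, with -0.41. Fermt2, a kindlin that activates integrins, was the most abundant, at 330.06 and 267.42 TPM in +/+ cultures against 324.57 and 395.96 TPM in Chd5-/- cultures.

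Of the partners of laminin in basement membranes, 3 of 10 rows tested were higher at an unadjusted p-value under 0.05 and 0 were lower, where 21.9% and 2.27% of all rows were, with a median log2 fold change of 0.77. Hspg2 and Col4a2, which are among the 3, passed the minimum only through Chd5-/- cultures, and over the other 8 rows 1 was higher and the median was 0.62. The highest were Col4a1 with 1.73, Col18a1 with 1.60 and the proteoglycan gene Hspg2 with 1.44. The lowest were Col4a6 with -1.26, the laminin linker Nid1 with -0.63 and Col4a5 with -0.46. For Col18a1 the genotypes overlapped, at 0.92 and 2.76 TPM in +/+ cultures against 19.05 and 2.31 TPM in Chd5-/- cultures. Col4a1 was at 1.82 and 3.34 TPM in +/+ cultures, 20.68 TPM in Chd5-/- replicate 1 and 5.20 TPM in Chd5-/- replicate 2, so that, as for Lama4, replicate 1 was far the highest. Agrn, the most abundant row of the list, was at 40.11 and 40.57 TPM in +/+ cultures against 42.97 and 121.80 TPM in Chd5-/- cultures.

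In the list of other integrin ligands, 3 of 18 rows tested were higher at an unadjusted p-value under 0.05 and 0 were lower, where 21.9% and 2.27% of all rows were, with a median of 1.27. Of the 18 rows, 7, among them Ctgf, passed the minimum only through Chd5-/- cultures, and the median of the other 11 was 0.89. The 3 rows under that p-value were Cyr61 with 2.04, Mfge8 with 1.90 and Npnt with 0.89. The 3 highest log2 fold changes were those of other rows, and each of these had 1 library far above the others. Fn1 had a log2 fold change of 2.57, Tnr, a tenascin of the nervous system, of 2.51 and Ctgf, a matricellular protein, of 2.197. The lowest were Ltbp1 with -0.91, Spp1 with 0.24 and Fbn1 with 0.29. Ctgf was at 25.28 TPM in Chd5-/- replicate 1 and 1.14 TPM or less in the other samples, whereas Tnr was at 87.51 TPM in Chd5-/- replicate 2 and at 2.93 TPM or less in the other samples. Tnc, the most abundant of these ligands, was at 64.04 and 65.36 TPM in +/+ cultures against 195.87 and 58.04 TPM in Chd5-/- cultures.

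Dystroglycan is the main laminin receptor that is not an integrin. Its gene Dag1 was at 96.29 and 92.60 TPM in +/+ cultures against 130.65 and 203.96 TPM in Chd5-/- cultures, a log2 fold change of 0.78 (unadjusted p = 0.0377 and adjusted p = 0.185 with limma). Of the 12 tested rows of the dystroglycan complex and Bcam, 1, Dag1, had an unadjusted p-value under 0.05, where 21.9% of all rows were higher and 2.27% lower. The list median was 0.50, and 0.34 over the 9 rows above the minimum in both genotypes, which leave out Bcam and Sntb1. Among the highest log2 fold changes were those of the laminin receptor Bcam with 1.04 and the syntrophin Sntb1 with 0.82, and the lowest were those of dystrophin, Dmd, with -0.52, the sarcoglycan Sgcb with 0.04 and dystrobrevin, Dtna, with 0.13. Dmd was the most abundant, at 172.40 and 187.84 TPM in +/+ cultures against 83.73 and 186.61 TPM in Chd5-/- cultures. Among enzymes that add the laminin-binding glycans to dystroglycan, 2 of 13 rows were higher at an unadjusted p-value under 0.05 and 0 were lower, against 21.9% and 2.27% of all rows, with a median of 0.28. These were Pomgnt1 with 0.68 and 1 of 2 rows of B4gat1 with 0.85, the other row being at -0.26. Pomt1 was at 0.81, and Tmem5, the most abundant, had a log2 fold change of -0.44, at 91.31 and 98.78 TPM in +/+ cultures against 97.98 and 49.64 TPM in Chd5-/- cultures.

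Among 9 membrane proteins known to associate with integrins, 3 were higher and 1 lower at an unadjusted p-value under 0.05, against 21.9% and 2.27% of all rows, with a median of 0.57. Without Cd82, which passed the minimum only through Chd5-/- cultures, 2 of 8 were higher and the median was 0.53. The tetraspanin Cd82 was at 0.26 and 0.61 TPM in +/+ cultures against 4.93 and 9.01 TPM in Chd5-/- cultures, a log2 fold change of 2.44 (unadjusted p = 0.00162 and adjusted p = 0.120 with limma). Basigin, Bsg, had a log2 fold change of 1.37 and the tetraspanin Cd81 of 0.83. The lowest were caveolin, Cav1, with -1.32, Cd9 with -0.02 and Cd63 with 0.18. Cd63 was the most abundant, between 1028.81 and 1225.96 TPM in all samples.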

How the data were processed

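RNA-seq of 4 samples was analysed, 2 +/+ and 2 Chd5-/- cultures. The authors deposited 1 table of TPM values, used here as deposited. The submitters' processing notes name Bowtie2 2.2.3, RSEM 1.2.20 and mm10 without stating their roles. The gene annotation and any strand setting are not given in the sources used here. Depth cannot be read from TPM, so precision rests on 2 samples per genotype.

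A row entered the test when it averaged 1 TPM or more over the samples. Tests used limma 3.58.1 under R 4.3.3 (lmFit, eBayes with a trend, two-sided) on log2(TPM + 1), with Benjamini-Hochberg adjustment over all 12576 rows. Intervals are limma's 95% intervals. GC content, length and coordinates came from GENCODE M21 (GRCm38), using the longest coding transcript, found for 93.0% of the rows tested and for all members. Trends were removed by loess (span 0.5). Promoters came from RefSeq (GRCm38.p6). Alternatives were pseudocounts of 0.1 and 5, no minimum or 10 TPM, 3 scalings, trend removal, replicate blocks, eBayes without a trend and leaving out each sample. The script was tested on simulated data. Python 3.11.15, pandas 2.3.3, scipy 1.17.1 and matplotlib 3.10.9 were used.

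The members, gene lists and tests were chosen with earlier results of these data known. Tested members were named with values, and from each related list the 3 highest and 3 lowest log2 fold changes, the most abundant row and, chosen after their values were seen, a few others. Some items under this rule are not reported here. Marker lists covered stem cells, leukocytes, endothelial, mural and mesenchymal, ependymal and neuronal cells, astrocytes and the oligodendrocyte lineage.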

Additional observations from a re-analysis of the deposited data

How the results depend on the processing

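None of the 16 tested rows passed an adjusted p-value of 0.05 with all 4 samples, under any alternative. Without Chd5-/- replicate 2, Itga5, Itga6, Itgb8, Lama4, Lamb2 and Lamc1 passed it, and without Chd5-/- replicate 1, Lamb1 and Lamb2 did, as did 1086 and 1247 of all 12576 rows. In these fits the spread rests on the +/+ samples alone, and the lone sample is assumed to vary like them. The 5 rows higher at an unadjusted p-value under 0.05 (21.9% of all rows) became 3 with a pseudocount of 5 (21.2%), 2 after quantile normalization (8.77%) or with GC and length trends removed (4.86%), 1 with a minimum of 10 TPM, where fewer rows were tested (18.4%), 7 with no minimum (17.0015%), and 2 to 6 with a sample left out: 2 without +/+ replicate 2 (5.75%), 3 without +/+ replicate 1 (11.98%) and 6 without Chd5-/- replicate 1 (27.8%) or 2 (25.9%). The 1 lower row (2.27% of all rows) became 2 by median of ratios (10.4%), by quantiles (8.12%) and when rescaled (6.51%), and 0 without the eBayes trend (1.77%).

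The integrin median of 0.20 became 0.10 with a pseudocount of 5, -0.17 with a minimum of 10 TPM, -0.12 by median of ratios, -0.43 by quantiles, 0.0062 when rescaled with the most abundant rows excluded and -0.37 with the trends removed, and ranged from -0.12 to 0.34 with a sample left out. The laminin median of 1.28 became 0.55 over all 12 rows without a minimum, 1.04 with a minimum of 10 TPM, 0.97 by median of ratios, 0.92 by quantiles and 0.63 with the trends removed, and ranged from 1.24 to 1.501 with a sample left out. The causes were not tested.

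Signs were opposite for Itga1 (-0.12), Itga4 (-0.10) and Itgb5 (-0.12) after median-of-ratios scaling, for Itga1 (-0.51), Itga4 (-0.46), Itga7 (-0.088), Itgb2 (-0.25) and Itgb5 (-0.087) after quantile normalization, for Itga1 (-0.023) after rescaling, and for Itga7 (-0.41), Itgb2 (-0.37) and Itgb5 (-0.63) with the trends removed. With a sample left out, Itga1 ranged from -0.17 to 0.49, Itga4 from -0.14 to 0.54, Itgb2 from -0.51 to 0.99, Itgb5 from -0.36 to 0.83 and Itgb8 from -1.34 to 0.34.

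With the replicate number as a block, 4 rows were higher and 0 lower (16.8% and 1.42% of all rows), and with the block and the trends removed 1 was higher and 1 lower (3.43% and 3.53%), with medians of -0.37 for integrins and 0.63 for laminins. The labels give no reason to pair samples by number, and the deviations of same-numbered samples correlated at -0.152. A crossed block, chosen after seeing the data, gave 5 higher and 1 lower (22.3% and 2.26% of all rows).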

Other observations

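Markers of several cell types were measured beside the adhesion genes, and none of the marker rows tested passed an adjusted p-value of 0.05 (limma). The summed TPM of the 11 stem cell markers was 9905 and 8213 in +/+ cultures against 4001 and 6937 in Chd5-/- cultures, led by Fabp7, a fatty acid binding protein of radial glia. The 6 neuronal markers summed to 507 and 517 TPM in +/+ cultures against 369 and 797 TPM in Chd5-/- cultures, nearly all of it Map2, while the other 5 summed to 3.93 and 1.62 TPM in +/+ cultures against 3.76 and 12.26 TPM in Chd5-/- cultures. The 6 oligodendrocyte lineage markers with a row summed to 567 and 628 TPM against 499.7 and 917 TPM. The astrocyte markers summed to 679 and 737 TPM against 169 and 937 TPM. For Map2 and for the oligodendrocyte lineage and astrocyte sums, Chd5-/- replicate 1 was the lowest and replicate 2 the highest sample, as for Itgb8 and Itgb5.

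The 5 ependymal markers summed to 4.63 and 5.61 TPM in +/+ cultures against 20.6 and 14.5 TPM in Chd5-/- cultures. The sum was led by Rarres2 in Chd5-/- replicate 1 and by Dynlrb2 in Chd5-/- replicate 2. Rarres2 was at 0.81 and 1.13 TPM in +/+ cultures against 11.72 and 0.53 TPM in Chd5-/- cultures. For Dynlrb2 the values were 1.95 and 2.22 TPM against 1.80 and 8.42 TPM. Tmem212 and Ccdc153 stayed at 0.62 TPM or less. Foxj1, the regulator of motile cilia, was at 1.52 and 1.71 TPM in +/+ cultures against 6.50 and 5.11 TPM in Chd5-/- cultures (unadjusted p = 0.00685 and adjusted p = 0.122 with limma). Of the 7 endothelial markers 5 had a row, and Flt1 was at 4.29 and 19.45 TPM in +/+ cultures against 1.02 and 0.69 TPM in Chd5-/- cultures, while Pecam1, Tek, Kdr and Emcn stayed at 0.59 TPM or less in every sample. Microglia and leukocyte rows summed to 14.74 and 12.64 TPM in +/+ cultures against 56.6 and 2.71 TPM in Chd5-/- cultures. Nearly all of this was Cd68, at 14.39 and 12.34 TPM against 56.02 and 2.50 TPM.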
